A study of Homo sapiens with 60 samples.

Results

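H3K27Ac, acetylation of lysine 27 of histone H3, was compared between untreated PC9 cells without METTL7A and untreated wild-type PC9 cells. PC9 is a human lung adenocarcinoma line that depends on a mutant EGFR. The series deals, by its title, with epigenetic states that precede resistance to tyrosine kinase inhibitors and oncogene amplification, and the untreated pair shows the mark before any drug. Members were the deposited peaks on chromosomes 1 to 22 with a global irreproducible discovery rate (IDR, a measure of how well a peak's rank agrees between replicates) of 0.05 or less. These were 5420 peaks of METTL7A knockout (KO) cells and 5045 of wild-type (WT) cells, 7232 regions once joined, of 149865 such peaks in the 24 lists of the series. Every deposited row on these chromosomes, 23305 in KO and 22245 in WT cells, served as a second set.

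The assay was CUT&RUN, in which a nuclease tethered to an antibody cuts out the bound chromatin. Each list came from 2 samples. The labels name the KO cells only as a METTL7A knockout, and do not say whether they are 1 clone or a pool. Further lists were set beside the main pair: those of Rescue cells, which are KO cells that overexpress METTL7A with MYC and FLAG tags, WT and KO cells grown for 6 to 8 weeks in osimertinib from 100 nM upward, and the lists of RAD21, PDS5A and IgG. The cells were grown in RPMI-1640 with serum. No source says whether the 2 samples of a list were separate cultures, the read depth behind each list is unknown, and both limit how far a difference between 2 lists can be read.

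H3K27Ac is written by the acetyltransferases p300 and CBP and marks promoters and enhancers in use. METTL7A is a membrane-bound protein of the methyltransferase-like family found at the endoplasmic reticulum and on lipid droplets. RAD21 is a core subunit of cohesin, the ring that holds DNA loops and sister chromatids, and PDS5A regulates how long cohesin stays on DNA. IgG is the background control. The lists hold no annotation, so regions are given by position on GRCh37, no gene is read from a coordinate, and neither the METTL7A locus nor lung markers were checked.

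KO and WT cells shared most of their H3K27Ac peaks, and nearly all of the others lay on a row of the other genotype's list that was over the IDR limit. Of the KO peaks, 3209 overlapped a WT peak by 1 bp or more and 2211 did not, 40.8% of the list (95% Wilson interval 39.5 to 42.1). Of the WT peaks, 3203 overlapped a KO peak and 1842 did not, 36.5% (35.2 to 37.8). Cut to equal length, the lists differed alike, with 1954 KO-only and 1960 WT-only peaks. Each genotype gave 1 list, so these counts have no replicate and the intervals cover counting error only.

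Only 76 KO peaks, 1.40% of the list, met no row of the WT list, and only 88 WT peaks, 1.74%, met no row of the KO list. The remaining 2135 KO-only and 1754 WT-only peaks met a row of the other list that was over the IDR limit. Those rows had a median global IDR of 0.254 in the WT and 0.258 in the KO list. It was 0.1 or less in 22.8% of the WT and 23.7% of the KO regions met in this way. The rows nearest the limit, all with an IDR that rounds to 0.05, had lower replicate values of 9.86 to 11.2 just inside and 9.98 to 13.6 just outside in KO cells. In WT cells they had 12.3 to 12.5 inside and 12.3 to 12.6 outside. These values are the −log10 p deposited for each replicate's peak.

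**Figure D1:**
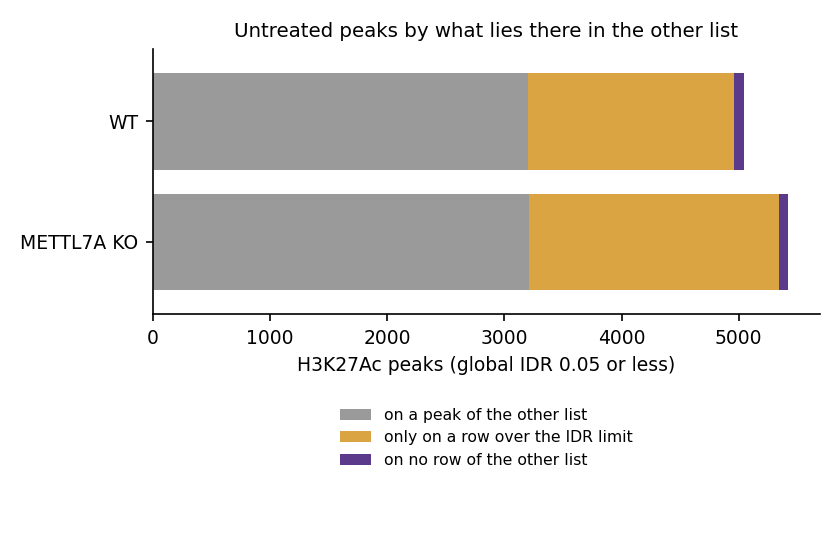
Number of H3K27Ac peaks (x axis) of untreated KO and WT cells, split by what the other list holds at the same place; each bar is 1 list made from 2 samples. The purple ends, 76 KO and 88 WT peaks, are the peaks with no row at all in the other list.

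Peaks that passed the IDR limit in 1 genotype only were weaker and narrower than shared ones. The limit acts on the same replicate values, so their lower values are partly set by the rule. The lower of the 2 replicate values had a median of 17.3 in shared and 13.2 in KO-only peaks of KO cells. In WT cells the medians were 19.5 and 15.7. Median widths were 1547 bp for shared and 1327 bp for KO-only peaks, and 1644 bp and 1470 bp for shared and WT-only peaks. Peaks with no row in the other list were the narrowest, with medians of 889 bp in KO and 846 bp in WT cells.

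The strongest peaks that passed the limit in 1 genotype showed what the limit acted on. On chromosome 7 from 55200053 to 55202932, the strongest KO-only peak had values of 159 and 110 in KO cells. The WT row there had 7.66 in the first replicate and 126 in the second, with a global IDR of 0.463. One WT replicate value was thus as high as those of KO cells and the other was below the lowest value of any WT peak. A low value can sit on a wide peak, as in regions described below. The widths of the low replicate peaks were not looked up at these places. The KO-only peak on chromosome 20 from 61555609 to 61558844 had 87.9 and 68.8 in KO cells against 4.33 and 66.0 in WT cells. That on chromosome 19 from 54973097 to 54976793 had 69.4 and 57.0 against 6.96 and 61.3. The same split was seen on chromosome 2 from 225448512 to 225451199, where KO cells had 56.2 and 52.6 and WT cells 10.6 and 51.2. On chromosome 20 from 56883692 to 56885688 the values were 61.2 and 52.3 in KO and 6.99 and 33.1 in WT cells.

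The strongest WT-only peaks mirrored this. The WT peak on chromosome 17 from 19655358 to 19657447 had values of 135 and 105, against 94.5 and 13.2 in KO cells. The WT peak on chromosome 19 from 55848454 to 55852597 had 95 and 97.3, against 84.8 and 8.48 in KO cells. On chromosome 17 from 43237741 to 43239769, WT cells had 87.2 and 82.8 and KO cells 5.89 and 69.0. In all of them 1 KO replicate had a high value and the other a low one. So it was on chromosome 3 from 156543057 to 156545428 (76.7 and 82.6 in WT, 4.03 and 65.5 in KO cells). The fifth, on chromosome 19 from 58896251 to 58899687, had 83.7 and 67.1 in WT and 13.6 and 52.2 in KO cells. All 10 of these places also held a Rescue peak, and 4 of them lay on an untreated IgG row, 3 of the KO-only and 1 of the WT-only.

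The peaks that met no row in the other list were modest. The strongest of KO cells lay on chromosome 2 from 393812 to 394698, with values of 25.4 and 21.8. It was a peak in treated KO cells and a row over the limit in Rescue and treated WT cells. The KO peaks on chromosome 17 from 62811678 to 62812228 (20.0 and 18.4) and on chromosome 7 from 39772468 to 39773679 (22.7 and 16.8) were peaks in Rescue cells and in both treated lists. The one on chromosome 21 from 19191473 to 19192105 (22.7 and 17) met no Rescue row. The one on chromosome 16 from 66440428 to 66441343 (16.7 and 16.4) also carried RAD21 and PDS5A peaks in both genotypes.

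Among WT peaks with no KO row, the strongest lay on chromosome 19 from 41945444 to 41946024, with values of 27 and 38.9. It carried RAD21 and PDS5A peaks in both WT and KO cells, and H3K27Ac peaks in Rescue cells and in both treated lists. The peak on chromosome 2 from 188409182 to 188409848 (24.9 and 22.1) met no row in treated KO cells either. The other three lay on chromosome 12 from 104684107 to 104684451 (21.9 and 26.5), on chromosome 6 from 32157985 to 32158455 (21.4 and 22.1) and on chromosome 17 from 15861432 to 15862542 (23.4 and 20.7). All 5 were peaks in Rescue cells, and none lay on an untreated IgG row of WT or KO cells.

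For the ranks, overlapping KO and WT rows were joined, and 15640 regions held rows of both. Each of the 4 replicate values was turned into a percentile from 0 to 100 over these regions, which removes the scale and length of the lists. No region passed limma's moderated test on normal scores of the ranks, 2 KO against 2 WT values, with Benjamini-Hochberg adjustment. The count was 0 higher in KO (0% of regions) and 0 higher in WT, and the lowest adjusted p of limma was 0.834. At an unadjusted p under 0.05 limma gave 856 regions, 5.47% of those tested, 398 higher in KO and 458 higher in WT.

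Replicates of 1 genotype were ranked hardly more alike than replicates of different genotypes. Across regions, which are not independent replicates, Spearman's rho was 0.535 between the KO replicates and 0.544 between the WT replicates. Between a KO and a WT replicate it was 0.507 to 0.523. The median distance between percentiles was 15.7 points within KO, 15.3 within WT and 16.1 to 16.6 between genotypes. Of the 1000 strongest regions, 56.7% were common to both KO replicates, 56.1% to both WT replicates and 53.4% to 55.2% to a KO and a WT replicate. A small set was at the top throughout: 26 regions were among the 100 strongest in all 4 columns. The most even of the strong ones lay on chromosome 14 from 75743491 to 75746227, with 110 and 111 in KO and 114 and 108 in WT cells. It lay on an IgG row, as did 11 of the 26.

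In 2876 regions both KO ranks were above both WT ranks (18.4% of regions), and in 2799 both were below (17.9%), together 36.3%. With 2 values against 2, ranks also separate in many regions where the genotypes do not differ. These shares are therefore no count of changed regions, and KO above WT or WT above KO names only this order. Of the regions that were a peak in the KO list only, 1089 of 2104 (51.8%) had KO ranks above both WT ranks. In the other 1015 the ranks overlapped between genotypes, save in 1 that was higher in WT. Of the regions that were a peak in the WT list only, 973 of 1736 (56.0%) had WT ranks above both KO ranks, and in 763 the ranks overlapped. The IDR limit and the ranks come from the same values, so these shares describe the 2 rules. Differences of over 50 points between the genotype means were found in 266 regions, 105 higher in KO and 161 higher in WT.

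The 10 regions with the largest difference in favour of KO lay on 8 chromosomes. On chromosome 15 from 39871140 to 39874286, the values were 24 and 26.8 in KO and 5.10 and 4.69 in WT cells. This put the KO replicates at percentiles 87.5 and 93.8 and the WT replicates at 8.45 and 3.46, a difference of 84.7 points. On chromosome 19 from 54690038 to 54696310, KO cells had 52.6 and 37.0 and WT cells 4.15 and 7.89, a difference of 83.7 points. In both regions the KO values were several times the WT values; the former ranked lower in KO under osimertinib, and the latter lay on IgG rows of both genotypes. On chromosome 9 from 98077372 to 98080401, KO cells had 22.6 and 18.3 and WT cells 5.08 and 5.52. On chromosome 2 from 16798479 to 16799128, KO cells had 18.0 and 16.2 and WT cells 4.15 and 4.59. The other six, on chromosomes 1, 10, 11, 17 and 19, differed by 64.6 to 77.0 points.

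The 10 with the largest difference in favour of WT began with a region on chromosome 15 from 93443182 to 93444898. There KO cells had 4.03 and 6.34 and WT cells 49.5 and 42.2, or 87.3 points (KO minus WT -87.3). On chromosome 20 from 46019272 to 46022691, KO cells had 4.94 and 6.34 and WT cells 93.2 and 62.6, a KO minus WT difference of -86.6. On chromosome 20 from 34041668 to 34044045, KO cells had 6.89 and 3.97 and WT cells 36.0 and 37.3. In all 3 the KO percentiles were 1.84 to 21.2 and the WT percentiles 95.2 to 99.8. The other seven, on chromosomes 2, 3, 5, 12, 16 and 19, had KO minus WT differences from -83.8 to -75.4.

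**Figure D2:**
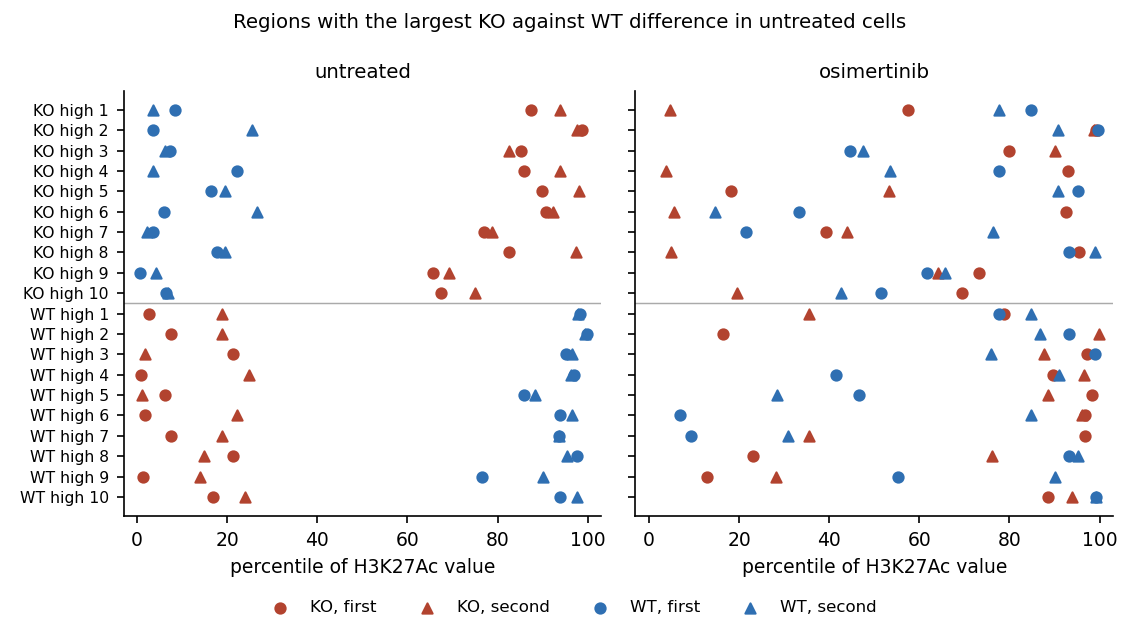
Percentile (x axis) of each replicate's H3K27Ac value among shared regions, for the 10 regions most in favour of KO (KO high) and the 10 most in favour of WT (WT high), untreated at left and under osimertinib at right; red is KO, blue is WT, and the 2 shapes are the 2 replicate columns. The colours stand apart at left, where the regions were chosen, and mix at right.

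In several of these regions the low value sat on a wide peak. At the region on chromosome 20 from 46019272 to 46022691, the KO replicate peaks were 2887 and 2987 bp wide and the WT peaks 3420 and 3233 bp. On chromosome 5 from 1512989 to 1520275, KO peaks of 7287 and 5709 bp had values of 3.56 and 7.09, while WT peaks of 3974 and 4410 bp had 41.5 and 36.1. On chromosome 15 from 93443182 to 93444898, KO peaks were 1621 and 1645 bp wide and WT peaks 657 and 658 bp, so the genotype with the lower value had the wider peaks. Only 3 of the 10 regions in favour of KO, and 3 of the 10 in favour of WT, differed in width rank in the same direction as in value.

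A value more than 50 points below the rank of its own peak's width occurred in at least 1 of the 4 columns of 3377 regions (21.6%). Among the 105 regions over 50 points in favour of KO, 54 had it in a WT column (51.4%). Among the 161 in favour of WT, 84 had it in a KO column (52.2%). These regions were chosen for a low value rank in that genotype, so such shares are partly set by the choice, and the 21.6% is over 4 columns rather than 2.

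Width was then compared in its own right, a measure added after these values were seen. It used the 14141 shared regions of 1 KO and 1 WT row, with median replicate widths of 985 and 945 bp in KO and 976 and 1059 bp in WT cells. Width ranks correlated at a Spearman rho of 0.782 between the KO replicates, 0.800 between the WT replicates and 0.658 to 0.689 between genotypes. For the values of the same regions, rho was 0.545, 0.562 and 0.518 to 0.533. Each list holds only peaks matched between its 2 replicates, so the replicates of 1 list share that matching and those of different lists do not; its part in the gap was not tested.

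KO peaks were wider in both replicates in 3171 of these regions (22.4%) and WT peaks in 3068 (21.7%). No region passed limma (lowest adjusted p 0.18), with 1922 at an unadjusted p under 0.05 (13.6% of regions). With a trend of the variance on the mean score, limma called 33 regions wider in KO and 41 wider in WT (0.523% of regions). Without either WT replicate it called 0 of each. The rank differences of width and of value correlated at a rho of 0.2 across regions.

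**Figure D3:**
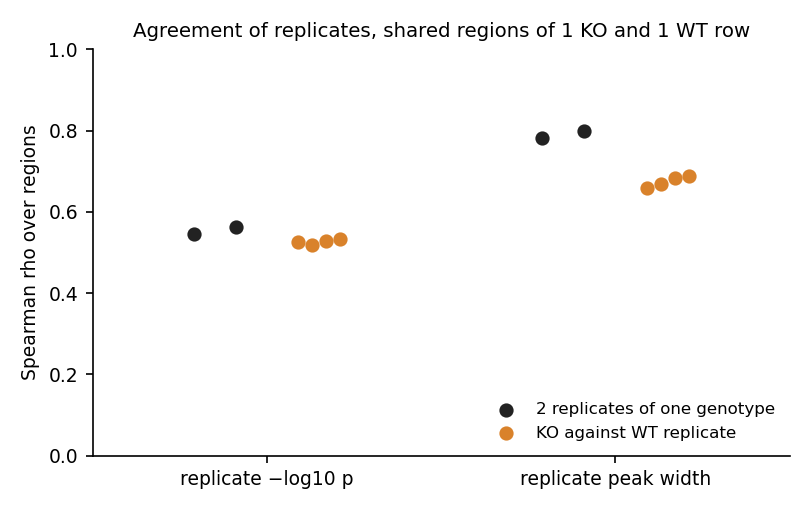
Spearman's rho (y axis) across 14141 shared regions between pairs of replicates, for the replicate value and for the replicate peak width; black points are pairs within KO or within WT, orange points are the 4 KO-WT pairs. Within and between pairs lie close for the value (0.518 to 0.562) and further apart for the width.

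The largest width difference in favour of KO was on chromosome 20 from 57428397 to 57431171, where KO peaks were 2274 and 2775 bp and WT peaks 275 and 280 bp wide. On chromosome 22 from 20933038 to 20938273, KO peaks were 5036 and 5236 bp and WT peaks 354 and 438 bp. Under osimertinib the second of these places had 2 rows in each genotype, the widest 1850 and 1305 bp in KO and 3239 and 3578 bp in WT cells. In favour of WT, peaks on chromosome 11 from 75052365 to 75056286 were 334 and 401 bp in KO and 3567 and 3922 bp in WT cells. Treated cells showed the reverse there, with 4128 and 3971 bp in KO and 315 and 396 bp in WT cells. On chromosome 7 from 130644402 to 130647497, KO peaks were 401 and 449 bp and WT peaks 2919 and 3094 bp; treated KO cells had no row. These regions were chosen for their width, so their widths are a description.

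The untreated differences leaned slightly the same way in treated cells, which are other libraries. Of the 2600 regions with KO above WT untreated and rows in both treated lists, 56.7% ranked higher in KO under osimertinib, with a median KO minus WT difference of 3.68 points. Of the 2543 regions with WT above KO, 46.5% did, with a median of -2.05. Over all 14110 regions it was 50.9%, with a median of 0.54. Of the first group, 681 (26.2%) again had both KO ranks above both WT ranks, against 23% of all. Of the second, 620 (24.4%) had both below, against 21.7% of all. Of the differences over 50 points, 54.4% of 103 regions in favour of KO and 34.2% of 149 in favour of WT ranked higher in KO under osimertinib. Their medians were 3.12 and -8.54 points. Of those in favour of KO, 24 (23.3%) again had both KO ranks above both WT ranks, against 23% of all. Of those in favour of WT, 37 (24.8%) again had both below, against 21.7%.

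Of the 20 regions named above, 9 kept their direction under osimertinib, 4 of those in favour of KO and 5 of those in favour of WT. For widths, 59.9% of the regions wider in KO and 55.6% of those wider in WT were wider in KO under osimertinib, beside 58.0% of all. In the sets, KO-only peaks met treated KO peaks more often than treated WT peaks, as shared peaks also did. WT-only peaks met both about equally often. KO-only peaks met a peak of treated KO cells in 61.3% (59.3 to 63.3) and one of treated WT cells in 52.1% (50 to 54.2). WT-only peaks met them in 53.0% (50.8 to 55.3) and 52.0% (49.7 to 54.2). Shared peaks of the KO list met them in 76.1% and 69.2%. The treated WT list was the longer, with 10077 peaks against 8383.

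Rescue cells, with METTL7A put back into KO cells, ranked these regions much as they ranked all regions. The regions were chosen for KO and WT ranks that lie apart, so a Rescue rank between them follows from the choice. The regions with KO above WT had a median percentile of 64.8 in KO, 33.3 in WT and 48.5 in Rescue cells. Those with WT above KO had 32.1, 65.3 and 48.2. Over all regions the Rescue median was 48.2. The Rescue rank was nearer to KO than to WT in 47.9% of the former, 48.9% of the latter and 49.4% of all. As sets, 77.6% of KO-only peaks (75.8 to 79.3) and 75.8% of WT-only peaks (73.8 to 77.7) met a Rescue peak. The Rescue list held 14177 peaks, and with it cut to the KO length the shares were 45.4% and 44.5%.

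Peaks and regions in favour of KO lay on RAD21 peaks more often than those in favour of WT, in the RAD21 lists of either genotype. On RAD21 peaks of WT cells lay 26.6% of shared KO peaks, 19.7% of KO-only peaks (18.1 to 21.4) and 12.9% of WT-only peaks (11.5 to 14.5). On RAD21 peaks of KO cells lay 35.3%, 28.1% (26.3 to 30.0) and 19.9% (18.1 to 21.8). The ranks gave the same order: 18.6% of regions with KO above WT (17.3 to 20.1) and 11.0% of those with WT above KO (9.93 to 12.3) lay on WT RAD21, beside 14.5% of all. With KO RAD21 the shares were 25.5%, 14.6% and 20.2%.

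For PDS5A the shares were lower. On PDS5A peaks of WT cells lay 11.2% of shared WT peaks, 8.14% of KO-only (7.07 to 9.35) and 5.43% of WT-only peaks (4.48 to 6.56). KO cells had 901 PDS5A peaks against 1731 in WT cells, and on these lay 3.86% of shared KO, 2.76% of KO-only (2.15 to 3.53) and 2.23% of WT-only peaks (1.64 to 3.01), whose intervals overlap. By rank, WT PDS5A met 7.75% of regions with KO above WT (6.83 to 8.79) and 5.0% with WT above KO (4.25 to 5.87). Of all shared regions it met 5.99%. With KO PDS5A the shares were 3.09%, 2.14% and 2.4%. Among the regions over 50 points apart, WT PDS5A met 4.76% of those in favour of KO (2.05 to 10.7) and 6.21% of those in favour of WT (3.41 to 11.1). These intervals overlap. WT RAD21 met 15.2% (9.6 to 23.3) and 8.7% (5.25 to 14.1) of the same regions. IgG moved as RAD21 did: 8.01% of KO-only and 5.75% of WT-only peaks lay on an untreated IgG row, and 8.07% and 4.79% of the regions ranked higher in KO and in WT. The longer IgG lists of treated cells differed more: treated WT IgG rows met 46.4% of KO-only (44.3 to 48.4) and 33.8% of WT-only peaks (31.6 to 36.0), and treated KO IgG rows 21.0% and 12.9%.

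The RAD21 shares were therefore also taken away from IgG rows. With everything on untreated IgG rows left out, WT RAD21 met 16.8% (15.5 to 18.3) of regions with KO above WT and 9.53% (8.47 to 10.7) of those with WT above KO. Of all shared regions off these rows, WT RAD21 met 13.0%. KO-only and WT-only peaks off these rows met it in 17.9% (16.3 to 19.7) and 11.3% (9.94 to 12.9). With treated IgG rows of WT and KO cells left out too, a step added after the values were seen, all shares were lower. WT RAD21 met 8.41% (7.1 to 9.94) of 1474 regions with KO above WT and 4.74% (3.88 to 5.80) of 1897 with WT above KO. Of all shared regions left by this step, WT RAD21 met 6.47%. It then met 10.9% (9.19 to 13.0) of KO-only and 6.02% (4.78 to 7.54) of WT-only peaks.

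By chromosome, the median KO minus WT rank was within 3 points of 0 on 20 of 22 chromosomes. It was lowest on chromosome 7, at -2.87 over 784 regions, with 115 above WT (14.7%) and 205 below (26.1%). It was highest on chromosome 13, at 5.62 over 274 regions, with 72 above (26.3%) and 35 below (12.8%). Chromosome 8 followed, at 3.66 over 603 regions, with 136 above (22.6%) and 99 below (16.4%). Of all shared regions, 18.4% were above and 17.9% below. In peaks, 60 of 112 KO peaks on chromosome 13 were KO-only (53.6%, 44.4 to 62.5), against 40.8% of all.

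**Figure D4:**
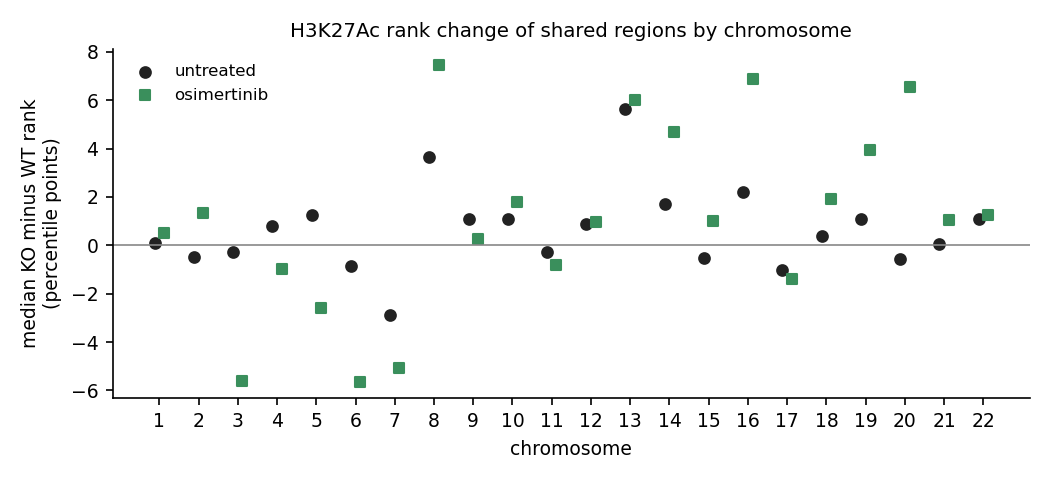
Median KO minus WT percentile rank of H3K27Ac (y axis, percentile points) over the shared regions of each chromosome; circles are untreated and squares osimertinib-treated cells, each point 2 KO against 2 WT libraries. Chromosome 7 lies below 0 and chromosomes 8 and 13 above 0 in both.

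Windows of 5 Mb with at least 20 shared regions, 268 in all, ran from -17.9 to 10.7 points, and the 3 lowest lay on chromosome 7. From 130 to 135 Mb the median was -17.9 over 22 regions, from 95 to 100 Mb -15.1 over 39, and from 125 to 130 Mb -11.6 over 25. The highest were on chromosome 12 from 25 to 30 Mb (10.7 over 29 regions), chromosome 13 from 110 to 115 Mb (10.3 over 37) and chromosome 8 from 120 to 125 Mb (9.82 over 27). Under osimertinib the low windows had H3K27Ac medians of -25.7, -32.4 and -18.9, and the high ones 4.78, 2.25 and 0.24.

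The low windows belonged to a stretch of chromosome 7 from 70 to 145 Mb, whose bounds were set after the windows were seen. Its 294 shared regions had a median KO minus WT rank of -11.2. Their median percentiles were 36.5 and 37.6 in the KO replicates and 55.5 and 55.1 in the WT replicates, so both KO values were below both WT values. Both KO ranks were below both WT ranks in 110 regions (37.4%) and above in 21 (7.14%), beside 17.9% and 18.4% of all regions. All 7 windows of the stretch with enough regions had a median below 0, from -17.9 to -1.10. They were seen before the bounds were set. Outside the bounds, the window from 65 to 70 Mb had -5.9 and that from 150 to 155 Mb had -7.24. In the rest of chromosome 7, 7 of 11 windows were also below 0, from -7.24 to 8.38 over all 11. The rest of chromosome 7 had a median of -0.25 over 490 regions, and all other chromosomes 0.58. Widths in the stretch were lower too, with a median of -8.57 points over 274 regions. Of these, 24 were wider in KO (8.76%) and 105 wider in WT (38.3%). Over all regions compared for width, the shares were 22.4% and 21.7%.

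The peak counts come from the same 2 lists as the windows seen before the bounds were set. They describe the stretch and are no separate evidence. The stretch held 105 of the WT peaks (2.08%, 1.72 to 2.51) and 65 of the KO peaks (1.20%, 0.94 to 1.53). Of the WT-only peaks 61 lay there (3.31%) and of the KO-only peaks 21 (0.95%).

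Other antibodies and treatments showed the stretch as well, in libraries not used for H3K27Ac in untreated cells. KO minus WT medians there were -8.9 for RAD21 over 218 regions (75 below and 20 above WT) and -10.0 for PDS5A over 94 regions (25 below and 3 above), untreated. Of all regions 16.4% and 13.7% were below. Under osimertinib they were -22.3 for H3K27Ac over 471 regions (253 below, 30 above), -21.9 for RAD21 over 271 (160 below, 6 above) and -24.4 for PDS5A over 251 (149 below, 10 above). Of all regions, 22.2%, 22.5% and 20.1% were below in these treated comparisons, and 23.2% were above for H3K27Ac. Treated WT cells had 380 of 10077 H3K27Ac peaks in the stretch (3.77%) and treated KO cells 101 of 8383 (1.20%).

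**Figure D5:**
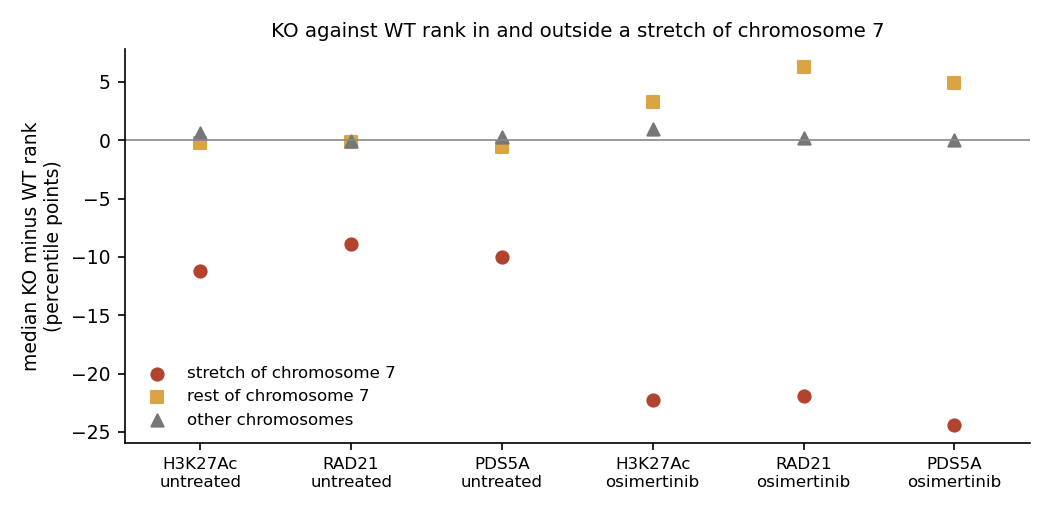
Median KO minus WT percentile rank (y axis, percentile points) in the stretch of chromosome 7 (red circles), the rest of chromosome 7 (yellow squares) and other chromosomes (grey triangles), for 3 antibodies untreated and under osimertinib. The stretch lies between -24.4 and -8.9 in the 6 comparisons, which share no library.

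The IgG lists follow no target. A smaller share of their rows lay in the stretch in KO and Rescue than in WT cells. The intervals lay apart from those of WT cells only under osimertinib, and overlapped in untreated cells. In the stretch lay 17 of 1042 IgG rows of untreated WT cells (1.63%, 1.02 to 2.60), 1 of 164 of KO cells (0.61%, 0.11 to 3.37) and 6 of 1036 of Rescue cells (0.58%, 0.27 to 1.26). Under osimertinib they were 229 of 7509 in WT (3.05%, 2.68 to 3.46), 13 of 2668 in KO (0.49%, 0.29 to 0.83) and 2 of 884 in Rescue cells (0.23%, 0.06 to 0.82). Rescue cells, compared with the same WT libraries as KO cells, had an H3K27Ac median of -8.68 there untreated and -17.9 treated. The number of copies of this stretch in each line, and its part in the result, was not tested.

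Chromosomes 8 and 13 kept their sign in the other KO and WT lists. So did chromosomes 9, 10 and 12, with smaller medians of at most 2.37. For chromosome 8 the KO minus WT medians were 3.09 for RAD21 and 4.0 for PDS5A untreated, and 7.45, 5.59 and 5.13 for H3K27Ac, RAD21 and PDS5A under osimertinib. For chromosome 13 they were 4.96 and 5.67 untreated and 6.01, 5.10 and 7.76 treated. On chromosomes 8 and 13 Rescue cells had the same sign against WT. Their H3K27Ac medians were 2.09 untreated and 5.87 treated on chromosome 8, and 3.59 and 7.32 on chromosome 13. Other chromosomes also had large KO minus WT H3K27Ac medians under osimertinib. They were 6.88 on chromosome 16, 6.56 on chromosome 20, -5.6 on chromosome 3 and -5.65 on chromosome 6. Chromosome 16 differed between marks, with 2.19 for untreated H3K27Ac and -2.16 for untreated RAD21. Across the 267 windows with values in both, untreated and treated H3K27Ac medians correlated at a Spearman rho of 0.249, and at 0.198 without chromosome 7.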

How the data were processed

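The data were CUT&RUN peak lists, 1 per genotype, antibody and treatment. The submitters' processing notes name deepTools 3.5.1, MACS2 2.2.7.1, Bowtie2 2.4.2, bedtools 2.30, SAMtools 1.16, FastQC and Trimmomatic, with GRCh37 as the build; the program and settings behind the IDR are not given in the sources used here. The authors deposited, for every peak, a −log10 p per replicate, which starts at 3, and 1 −log10 global IDR. Depth per sample is unknown. The columns name no replicate number, and no source says that replicates were separate cultures, so p-values measure only the spread between these samples.

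Peaks overlapping by at least 1 bp counted as shared, with 95% Wilson intervals. Overlapping KO and WT rows were joined, with the highest value (or widest peak) per replicate, ranked over shared regions, turned into normal scores and tested with limma 3.58.1 in R 4.3.3, threshold 0.05 after Benjamini-Hochberg adjustment. Other steps used Python 3.11.15, pandas 2.3.3 and scipy 1.17.1. Code was tested on simulated data. Positions named are the 10 regions most different each way among those whose replicate ranks do not overlap, the 5 strongest peaks of each kind and the 3 windows at either end. Members, rules and lists were chosen with earlier results of these data known; widths and the stretch of chromosome 7 were added after their values were seen. Gene lists and cell markers were planned but not used here, since no GRCh37 annotation was at hand. The alternatives tried are described in the closing section.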

Additional observations from a re-analysis of the deposited data

Results flagged for a closer look

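Of the 20 regions named for their untreated difference, 5 had both KO ranks on the other side of both WT ranks under osimertinib; the difference between treatments was not tested. The region on chromosome 15 from 39871140 to 39874286, higher in KO untreated, had a KO minus WT rank of -50.2 under osimertinib, and that on chromosome 17 from 79022378 to 79025645 had -57.2. The regions higher in WT untreated on chromosome 19 from 58890605 to 58894883, chromosome 16 from 67202614 to 67205907 and chromosome 2 from 38301665 to 38305107 had 55.9, 50.5 and 46.1 under osimertinib. Over all shared regions with treated rows, 23% had both KO ranks above and 21.7% both below WT under osimertinib.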

How the results depend on the processing

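No paired analysis was possible because the value columns carry no replicate number. Limma called 0 regions in each direction under each alternative for the values and without each replicate, with lowest adjusted p from 0.218 (variance trend) to 0.887. With every row, KO-only and WT-only peaks numbered 6578 and 5900 and shared ones 16727 and 16345; at an IDR of 0.01 or less they were 1093, 873, 1366 and 1364. Regions with KO above or WT above numbered 619 and 590 at an IDR of 0.05 or less in both lists, of fewer regions. Leaving out 1 replicate, which loosens that rule, gave 5306 to 5467 and 5157 to 5380. At that IDR the regions with WT above KO had a median of -0.725 under osimertinib. Every Rescue row met 99.7% of KO-only and 99.8% of WT-only peaks, and the shortened Rescue list 45.4% and 44.5%. With every cohesin row, RAD21 of the same cells met 84.0% of shared and 76.6% of KO-only KO peaks, and 78.1% and 54.5% of shared and WT-only WT peaks, and PDS5A 42.7%, 35.5%, 70.1% and 46.7%. Off untreated IgG rows, WT RAD21 met 17.9% of KO-only and 11.3% of WT-only peaks and 16.8% and 9.53% of the regions with KO and WT above; off treated IgG rows as well, 10.9%, 6.02%, 8.41% and 4.74%. Windows of 10 Mb ranged from -15.2 to 11.8. The stretch of chromosome 7 had a median of -17.5 over 44 regions at an IDR of 0.05 or less in both lists, -6.51 with ranks within each chromosome, and -12.6 to -9.53 without 1 replicate. Width calls with a variance trend were 33 and 41, without the first KO replicate 17 and 106, without the second 46 and 177, and without either WT replicate 0 and 0; the cause was not tested. The unknown depth of each library limits what the lists can show.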
